A study of Homo sapiens with 9 samples.

Results

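INPP5D encodes SHIP1, a lipid phosphatase best known from blood cells, and the arrays of this study carried it together with 7 genes of the same signalling route: the phosphatases INPPL1 and INPP4B, the class I phosphoinositide 3-kinase (PI3K) subunits PIK3CA, PIK3CB, PIK3CD and PIK3R1, and the kinase AKT1. The 8 genes were found through probes whose RefSeq accession belongs to them, which gave 11 of the 42405 gene probes and 8 of the 35010 genes on the array. INPP5D itself was picked because its level was higher at 8 nM and lower at 80 nM than in untreated cells, so INPP5D was chosen by its levels on these same arrays, and its values are given as a description with no test. The other 7 genes were taken as its partners in the pathway.

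The samples were A2780 cells, a long-established human ovarian carcinoma line, cultured for 24 h untreated, with 8 nM DIG-MSK or with 80 nM DIG-MSK. DIG-MSK is an analogue of mithramycin, an antibiotic that binds the minor groove of GC-rich DNA. Each group had 3 arrays from independent cultures of this line, 9 arrays in all, each hybridised with 1 RNA sample labelled with 1 dye. Untreated cells received no drug.

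Class I PI3K is a dimer of a catalytic p110 subunit and a regulatory subunit, and it phosphorylates the membrane lipid PI(4,5)P2 to PIP3. PIP3 recruits AKT kinases and their activator PDPK1 to the membrane. SHIP1 and its relative SHIP2, the product of INPPL1, remove the 5-phosphate and give PI(3,4)P2, which INPP4A and INPP4B convert further. Mutation of PIK3CA and loss of INPP4B are well known in gynaecological tumours, while SHIP1 is known mainly as a brake on signalling in leukocytes.

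Since DIG-MSK belongs to a family of compounds that bind GC-rich DNA, the promoter windows of the genes are shown with the GC box, the letters GGGCGG on either strand, in capitals. Each window runs from 250 bases before to 50 bases after an annotated start of transcription, 5′ to 3′ on the strand of the gene, from RefSeq on GRCh38.p14. The windows are those of INPP5D at chr2:233060092-233060391 (plus strand), of INPPL1 at chr11:72223644-72223943 (plus strand, the window with the most GC boxes among its 3) and of PIK3CA at chr3:179148107-179148406 (plus strand). They are the gene with opposite values at the 2 concentrations, its closest relative, and the member with the largest fall among the other 7.
INPP5D: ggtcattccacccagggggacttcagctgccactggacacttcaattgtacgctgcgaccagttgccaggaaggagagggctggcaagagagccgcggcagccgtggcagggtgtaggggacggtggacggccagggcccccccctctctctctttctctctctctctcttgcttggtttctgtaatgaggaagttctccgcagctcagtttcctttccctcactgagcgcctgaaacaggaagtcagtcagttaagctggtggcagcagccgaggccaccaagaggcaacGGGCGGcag
INPPL1: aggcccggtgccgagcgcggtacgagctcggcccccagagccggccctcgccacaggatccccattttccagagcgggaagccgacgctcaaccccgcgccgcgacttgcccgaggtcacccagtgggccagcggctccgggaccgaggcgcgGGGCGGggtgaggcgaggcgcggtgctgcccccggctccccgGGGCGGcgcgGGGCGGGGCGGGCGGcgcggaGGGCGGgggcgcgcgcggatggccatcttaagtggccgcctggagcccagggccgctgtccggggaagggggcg
PIK3CA: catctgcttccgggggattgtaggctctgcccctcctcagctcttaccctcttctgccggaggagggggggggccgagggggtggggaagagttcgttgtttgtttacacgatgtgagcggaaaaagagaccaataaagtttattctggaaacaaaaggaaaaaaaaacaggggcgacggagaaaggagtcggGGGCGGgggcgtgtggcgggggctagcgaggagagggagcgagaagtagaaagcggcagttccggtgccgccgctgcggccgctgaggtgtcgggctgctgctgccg

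The INPP5D window held 1 GC box, which lies after the start, with a GC content of 60.3% and 12 CpG dinucleotides. The INPPL1 window held 6, some of them overlapping, with a GC content of 79.3% and 44 CpG. The PIK3CA window held 1, before the start, with a GC content of 60.7% and 22 CpG. Of all 35116 promoter windows of the same length, 45.0% held at least 1 GC box, and the medians were a GC content of 58.7% and 14 CpG. The 8 genes have 22 windows in all, of which 13 held a GC box. INPPL1 and PIK3CD held one in each of 3 windows, AKT1 in both of its windows, PIK3R1 in 2 of 4 and PIK3CB in 1 of 2. None of the 6 INPP4B windows held these letters. The letters of an EGR site (GCGTGGGCG) and of a cyclic AMP response element (TGACGTCA) were found in no window, and the E-box letters CACGTG in 1 window, of INPP4B. These 3 motifs, read on both strands, stood in 0.8%, 1.8% and 7.3% of all promoter windows. A match of letters is a description of the sequence and shows no binding.

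The level of a gene is given here as the log2 of its spot intensity minus the log2 of the 75th percentile of the same array, so that 0 is a probe as bright as that percentile and 1 unit is a doubling. Levels of different genes come from different probes and are not set against each other. The rule of the study was used to call a change: the ratio to untreated had to reach 1.5 or drop to 0.67, and the p of limma before adjustment had to be below 0.05. The Benjamini-Hochberg adjusted p over all 21832 genes tested stands beside the calls that are described singly. The untreated and 8 nM arrays shared slide 1 and its scan, and the 80 nM arrays filled slide 2 in another scan, so that 80 nM treatment and slide cannot be told apart in any 80 nM value below. Over all genes tested, arrays of the same group correlated between 0.989 and 0.996, untreated with 8 nM arrays between 0.983 and 0.991, and 80 nM arrays with the others between 0.943 and 0.950. In bulk RNA from a culture, a change in the number of cells that carry a transcript and a change in its amount per cell cannot be told apart.

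INPP5D was far higher after 8 nM DIG-MSK than in untreated cells and far lower after 80 nM. Its level (probe for NM_001017915) was -0.827, -0.997 and -1.06 on the 3 untreated arrays, 1.35, 1.47 and 1.24 at 8 nM, and -2.92, -2.82 and -2.80 at 80 nM. The groups stood apart with no overlap, in the order 8 nM, untreated, 80 nM, and each step in that order was many times the spread within a group. The group means were -0.96 ± 0.118 untreated, 1.35 ± 0.114 at 8 nM and -2.85 ± 0.0603 at 80 nM (SD, n = 3). The mean differences from untreated were 2.31 at 8 nM (4.96-fold) and -1.89 at 80 nM (0.270-fold), and the difference of 80 nM from 8 nM was -4.20 (0.0545-fold). In processed intensity, with the background taken off and the mean taken over the 2 spots of the probe, it read 468.9, 549.3 and 492.1 untreated, 2921, 2301 and 2757 at 8 nM, and 131.6, 126.3 and 131.4 at 80 nM, and every one of the 9 readings was well above background. These are the values by which INPP5D was chosen. A single probe carried the gene, so no second probe was there to set beside it.

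**Figure D1:**
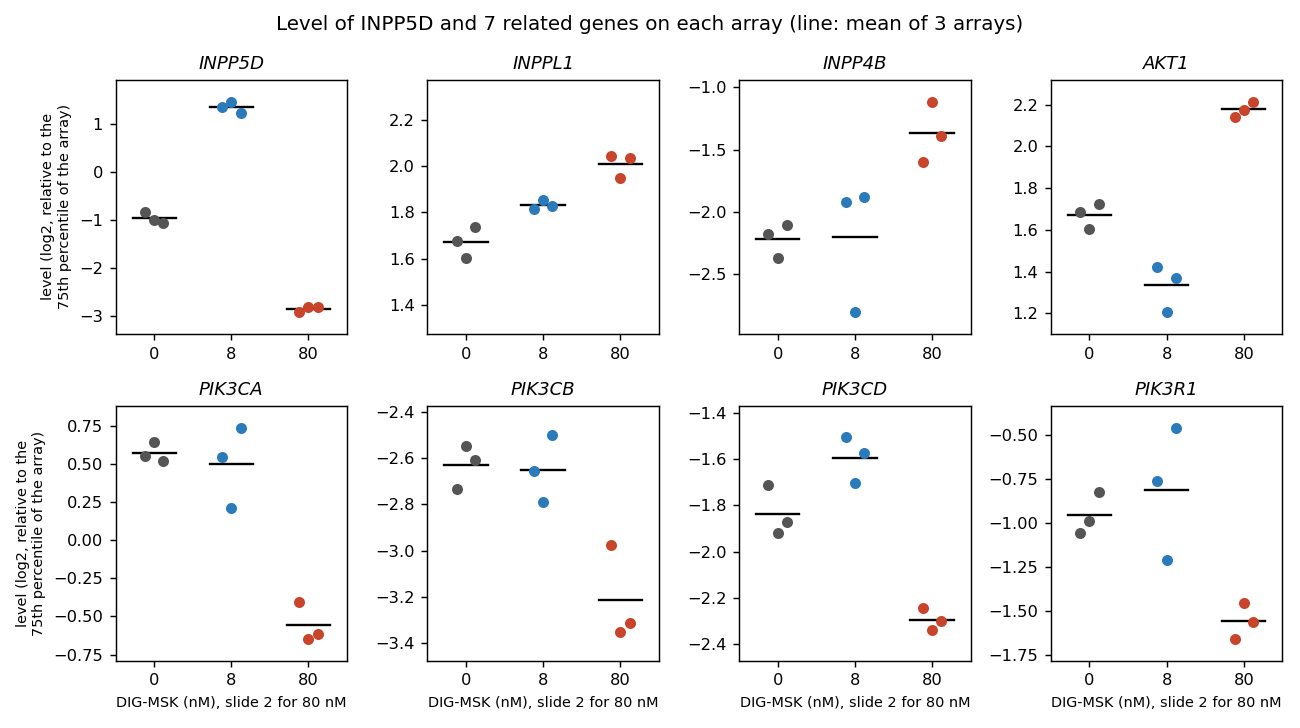
Level of each of the 8 genes on each array (vertical axis, log2 relative to the 75th percentile of the array; each panel has its own range) against DIG-MSK concentration in nM, with a line at the mean of 3 arrays. INPP5D goes from -0.96 untreated up to 1.35 at 8 nM and down to -2.85 at 80 nM, while the PI3K subunits PIK3CA, PIK3CB, PIK3CD and PIK3R1 have their lowest arrays at 80 nM and INPPL1, INPP4B and AKT1 their highest.

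INPPL1, which encodes SHIP2, the ubiquitously expressed relative of SHIP1, did not share that pattern. Its level was 1.68, 1.60 and 1.74 untreated, 1.82, 1.86 and 1.83 at 8 nM, and 2.05, 1.95 and 2.04 at 80 nM. The 3 groups did not overlap and stood in the order of concentration, in small steps. The change was 0.16 ± 0.0661 (log2, SE) at 8 nM with limma's adjusted p of 0.14, and 0.34 ± 0.0661 at 80 nM with an adjusted p of 0.0025, which was 1.26-fold and under the fold limit. A second, dimmer INPPL1 probe differed from untreated by 0.05 at 8 nM and by 0.44 at 80 nM. When arrays were scaled to spike-in RNA in place of the 75th percentile, the 80 nM change of INPPL1 was 0.06 and its difference from 8 nM turned to -0.18.

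INPP4B, which removes the 4-phosphate from PI(3,4)P2, rose at 80 nM. Its level was -2.18, -2.37 and -2.11 untreated, -1.92, -2.80 and -1.88 at 8 nM, and -1.60, -1.12 and -1.39 at 80 nM. The 80 nM arrays lay above all 6 others, and at 8 nM replicate 2 lay far below the other two arrays. The change was 0.85 ± 0.244 at 80 nM (1.80-fold, adjusted p = 0.017, limma). At 8 nM it was 0.02, with a 95% confidence interval from -0.54 to 0.58, and without 8 nM replicate 2 it was 0.32. With spike-in scaling the 80 nM change was 0.57 with an adjusted p of 0.23 and was no longer called, and the difference from 8 nM (0.83, adjusted p = 0.018) was not called with this scaling (0.47) or without 8 nM replicate 2 (0.53). A second INPP4B probe was well above background on 1 of the 9 arrays and gave no bound.

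PIK3CA, the gene of the catalytic subunit p110α, had the largest change among the 7 tested genes, and it fell at 80 nM only. Its level was 0.55, 0.65 and 0.52 untreated, 0.55, 0.21 and 0.73 at 8 nM, and -0.40, -0.65 and -0.61 at 80 nM. All 80 nM arrays lay below the 6 others, whereas the 8 nM arrays lay on both sides of the untreated ones. The change at 80 nM was -1.13 ± 0.134 (0.458-fold, adjusted p = 1.7e-04, limma), and at 8 nM it was -0.07 (adjusted p = 0.73). The difference between the concentrations was itself past the rule, at -1.05 (adjusted p = 2.7e-04).

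PIK3CB, the gene of p110β, was just past the limit at 80 nM. Its level was -2.73, -2.55 and -2.61 untreated, -2.66, -2.79 and -2.50 at 8 nM, and -2.98, -3.35 and -3.31 at 80 nM. The 80 nM arrays lay below all others by a small margin. Its change was -0.59 ± 0.122 (0.667-fold, adjusted p = 0.0036, limma), and the call was lost with quantile normalization (-0.58), with the authors' log2 values (-0.42), with normexp background correction (-0.34) and when any of 4 single arrays was left out (untreated replicate 2 or 3, 80 nM replicate 2 or 3). At 8 nM the change was -0.02 (adjusted p = 0.92).

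PIK3CD encodes p110δ, the catalytic subunit best known from leukocytes. Its level was -1.71, -1.92 and -1.87 untreated, -1.50, -1.70 and -1.57 at 8 nM, and -2.24, -2.34 and -2.30 at 80 nM. It had the same order of groups as INPP5D, 8 nM above untreated above 80 nM, but the steps were small, and the highest untreated array was almost level with the lowest 8 nM array. The changes were 0.24 ± 0.0841 at 8 nM (adjusted p = 0.095) and -0.46 ± 0.0841 at 80 nM (0.728-fold, adjusted p = 0.0018, limma), neither past the fold limit. Between 80 and 8 nM the difference was -0.70 (0.615-fold, adjusted p = 2.0e-04) and was called, though not with normexp background correction (-0.51) or for the mean of its probes (-0.47). With spike-in scaling its 80 nM change was called too, at -0.74. A second, much dimmer PIK3CD probe differed from untreated by 0.14 and -0.09.

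PIK3R1, which encodes the regulatory subunit p85α that holds and stabilises p110, fell at 80 nM. Its level was -1.06, -0.99 and -0.82 untreated, -0.76, -1.21 and -0.46 at 8 nM, and -1.66, -1.46 and -1.56 at 80 nM. The 80 nM arrays lay below all others, and 8 nM replicate 2 was again the lowest of its group. The change was -0.60 ± 0.173 at 80 nM (0.659-fold, adjusted p = 0.017, limma) and 0.15 at 8 nM (adjusted p = 0.59), or 0.35 without 8 nM replicate 2. The call at 80 nM was lost with normexp background correction (-0.39), with the authors' log2 values (-0.45), without untreated replicate 3 (-0.53) and without 80 nM replicate 1 (-0.55).

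8 nM replicate 2 was also the array with the fewest gene probes well above background, 24814 against 25161 to 27151 on the other arrays. Its level was the lowest of its group for INPP4B, PIK3CA, PIK3CB, PIK3CD, PIK3R1 and AKT1, and the highest for INPP5D and INPPL1. The part of this array in the 8 nM values was not tested beyond leaving it out.

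AKT1 encodes the kinase that PIP3 recruits. Its level was 1.69, 1.60 and 1.72 untreated, 1.42, 1.21 and 1.37 at 8 nM, and 2.14, 2.17 and 2.21 at 80 nM. The groups did not overlap, and their order was the reverse of that of INPP5D and PIK3CD, with 8 nM lowest and 80 nM highest. The change was -0.34 ± 0.0775 at 8 nM (0.792-fold, adjusted p = 0.025) and 0.51 ± 0.0775 at 80 nM (1.42-fold, adjusted p = 7.0e-04), both under the fold limit, while 80 nM exceeded 8 nM by 0.84 (1.79-fold, adjusted p = 4.6e-05, limma) and was called. With spike-in scaling the 80 nM change was 0.23 with an adjusted p of 0.51, and the difference from 8 nM (0.48) was not called.

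Across the 7 genes other than INPP5D, none was called at 8 nM, where 7.09% of all genes tested were called, 4.25% higher and 2.84% lower. By limma's unadjusted p under 0.05 with no fold limit, 3 of the 7 passed at 8 nM (INPPL1, PIK3CD and AKT1), beside 30.8% of all genes, and 1 of them, AKT1, passed the adjusted p (0.025, or 0.043 when replicate numbers were blocked and 0.096 when that block was fitted to the untreated and 8 nM arrays alone). At 80 nM, 4 of the 7 were called, beside 35.1% of all genes. INPP4B was the 1 called higher, beside 18.8% of all genes called higher, and PIK3CA, PIK3CB and PIK3R1 were called lower, beside 16.3%. The count was 2 of 7 without untreated replicate 3, as it was with normexp background correction or the authors' log2 values. The median change of the 7 genes was 0.02 at 8 nM and -0.46 at 80 nM, against -0.06 and 0.08 over all genes tested. Between 80 and 8 nM, 5 of the 7 were called, 2 higher (INPP4B, AKT1) and 3 lower (PIK3CA, PIK3CD, PIK3R1), beside 33.6% of all genes, 19.5% higher and 14.2% lower. The 2 comparisons with untreated cells share the untreated arrays.

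**Figure D2:**
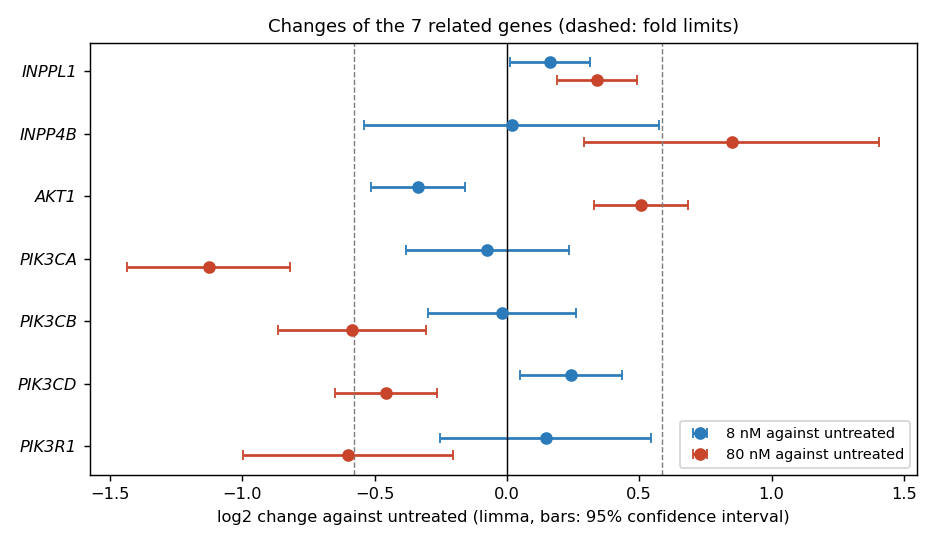
Change of each of the 7 genes other than INPP5D against untreated cells (horizontal axis, log2; points are limma estimates and bars 95% confidence intervals) at 8 nM and at 80 nM, with dashed lines at the fold limits of 1.5 and 0.67. At 8 nM every estimate lies between the limits, from -0.34 for AKT1 to 0.24 for PIK3CD, and at 80 nM PIK3CA at -1.13 and INPP4B at 0.85 lie farthest out.

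Of the close relatives of these genes, PIK3R3, which encodes the regulatory subunit p55γ, rose at 8 nM. Its level was -1.81, -1.66 and -1.63 untreated, -0.98, -0.78 and -0.64 at 8 nM, and -1.79, -2.01 and -1.81 at 80 nM. All 8 nM arrays lay above the 6 others, while untreated and 80 nM arrays overlapped. The change was 0.90 ± 0.109 at 8 nM (1.87-fold, adjusted p = 0.0017) and -0.16 at 80 nM (adjusted p = 0.22), and the difference of 80 nM from 8 nM was -1.07 (adjusted p = 8.3e-05, limma). The regulatory subunit PIK3R2 was not called, with changes of 0.14 and 0.30, nor was the 4-phosphatase INPP4A, with -0.17 and -0.36 (-0.63 at 80 nM and called with spike-in scaling).

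PDPK1, the kinase that activates AKT, fell at 80 nM by its brighter probe. Its level was 0.12, -0.05 and -0.04 untreated, -0.08, -0.45 and -0.07 at 8 nM, and -0.90, -0.94 and -1.01 at 80 nM. The 80 nM arrays lay below all others, and the change was -0.96 ± 0.112 (0.514-fold, adjusted p = 1.5e-04, limma). The second PDPK1 probe differed from untreated by -0.18 at 80 nM, so the probes disagree in size, and their mean differed by -0.57 and was not called.

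AKT2 was read by 3 probes whose differences at 80 nM were 0.39, -0.32 and 0.20, and its brightest probe was not called at either concentration. On that probe untreated replicate 1, at 0.66, lay well below the other untreated arrays at 1.53 and 1.59.

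A list of 126 phosphoinositide genes covered the pathway beyond these members, and all 126 had a probe. Of the list without INPP5D, 102 were tested, since a gene entered the test if some group had it well above background on each of its 3 arrays. A gene that passed through the group where it was brighter was likely to differ, so the counts below are a description of those tested. At 8 nM, 11 of the 102 were called (10.8%, beside 7.09% of all genes), 7 higher and 4 lower, and 10 of the 11 also passed by the adjusted p, beside 5.13% of all genes, the exception being DOK3 (adjusted p = 0.081). At 80 nM, 34 were called (33.3%, beside 35.1%), 18 higher and 16 lower, and all of them passed by the adjusted p, beside 34.3% of all genes. The median change was 0.02 and 0.03, close to the -0.06 and 0.08 over all genes tested.

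**Figure D3:**
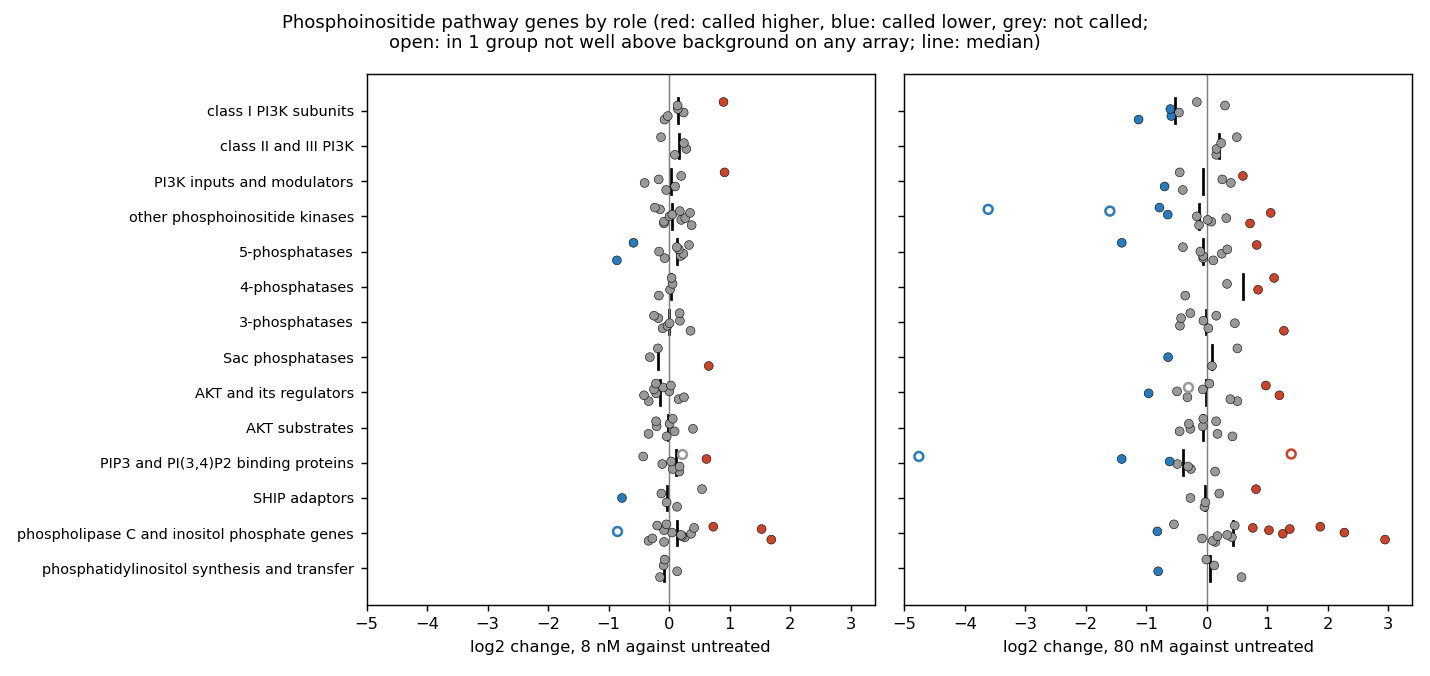
Change of the 102 tested phosphoinositide genes other than INPP5D against untreated cells (horizontal axis, log2), by role, at 8 nM (left) and 80 nM (right); red points were called higher, blue lower, grey not called, open points had 1 group with no array well above background, and lines mark medians. The phospholipase C and inositol phosphate genes have 7 of 16 points called higher at 80 nM, beside 18.8% of all genes, with a median of 0.44. The 8 AKT substrates, each shown by its brightest probe, have none called at either concentration, beside 7.09% of all genes at 8 nM and 35.1% at 80 nM.

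Phospholipase C cuts PI(4,5)P2 into inositol trisphosphate and diacylglycerol, inositol trisphosphate opens the calcium channels ITPR1 to ITPR3, and phosphatases such as INPP1 recycle the inositol. Of the 16 such genes tested, 3 rose (INPP1, PLCD1, PLCD4) and 1 fell (PLCB1) at 8 nM, beside 4.25% of all genes called higher and 2.84% called lower. At 80 nM 7 rose (INPP1, ITPR3, PLCD4, PLCD1, ITPR2, PLCB3, PLCD3) and PLCB1 fell, beside 18.8% and 16.3%, with a median change of 0.44. PLCB3 changed by 1.03 (adjusted p = 1.2e-04, limma) and PLCD3 by 0.76 (adjusted p = 0.0082).

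INPP1, which removes the 1-phosphate from inositol bisphosphate, was higher at each step of concentration. Its level was -5.33, -5.42 and -5.63 untreated, -3.70, -4.03 and -3.58 at 8 nM, and -2.54, -2.53 and -2.47 at 80 nM. No groups overlapped. The change was 1.69 ± 0.126 at 8 nM (3.23-fold, adjusted p = 1.7e-04) and 2.95 ± 0.126 at 80 nM (7.71-fold, adjusted p = 5.9e-07, limma). Both changes were smaller, though still called, on the authors' log2 values (0.93 and 1.85) and after normexp background correction (0.66 and 1.44).

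PLCD1, a phospholipase C of the delta class, was already at its high level at 8 nM. Its level was -1.63, -1.71 and -1.67 untreated, -0.15, -0.11 and -0.16 at 8 nM, and -0.35, -0.24 and -0.31 at 80 nM. Both treated groups lay above all untreated arrays, with changes of 1.53 (2.89-fold, adjusted p = 1.6e-05) and 1.37 (2.59-fold, adjusted p = 9.0e-07, limma). The difference of -0.16 between the concentrations had an adjusted p of 0.062.

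PLCD4, of the same class, rose by 0.73 with 8 nM (adjusted p = 9.8e-04) and by 1.88 with 80 nM (adjusted p = 5.3e-07). The 8 nM call was lost when normexp was used for the background (0.31) or the authors' log2 values were taken (0.39), and the 80 nM change of PLCD4 was 1.21 with normexp. ITPR3, a calcium release channel, had levels of -3.05, -3.43 and -2.97 untreated, -2.96, -3.18 and -3.17 at 8 nM, and -0.78, -0.96 and -0.89 at 80 nM. Untreated and 8 nM arrays overlapped, and the 80 nM arrays lay far above both, with a change of 2.28 ± 0.129 (4.84-fold, adjusted p = 2.7e-06, limma). ITPR2, a second channel, rose by 1.26 at 80 nM (adjusted p = 9.4e-04), or by 1.96 for the mean of its probes. PLCB1 was not well above background on any 8 nM array and was at least 1.76-fold lower there than in untreated cells (adjusted p = 0.027, limma).

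**Figure D4:**
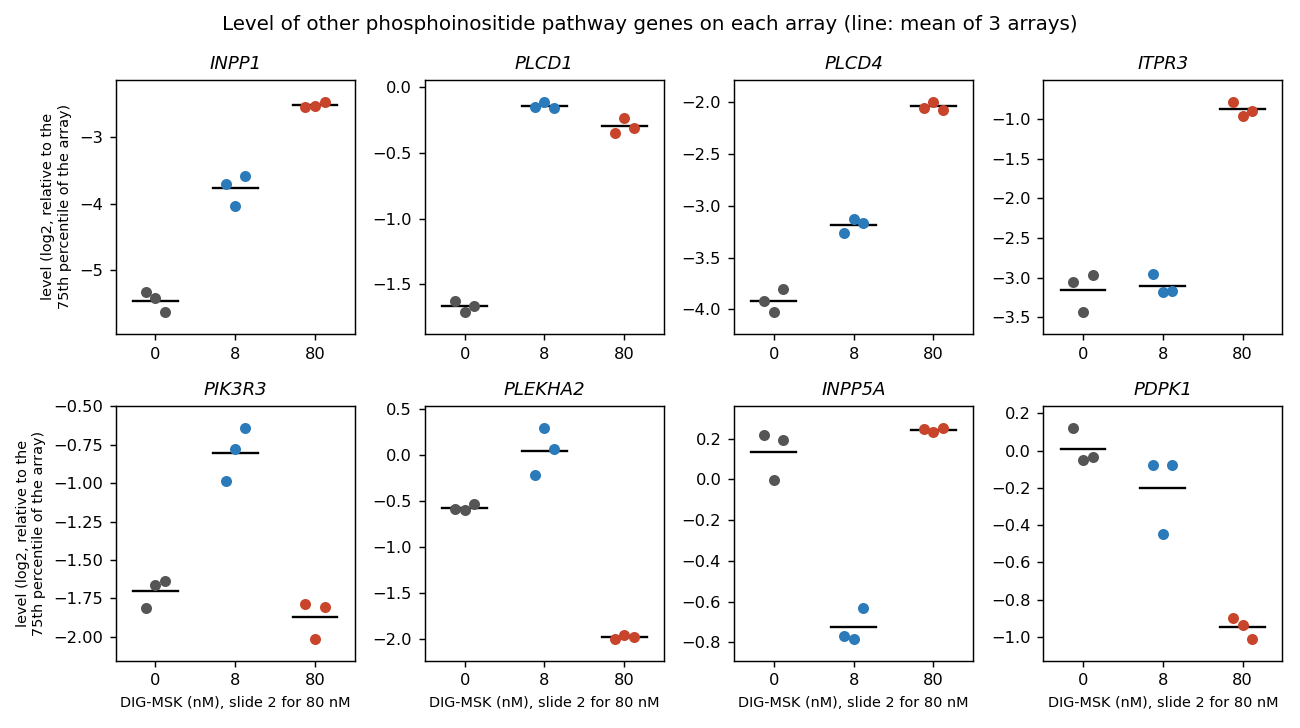
Level of 8 further phosphoinositide genes on each array (vertical axis, log2 relative to the 75th percentile of the array; each panel has its own range) against DIG-MSK concentration in nM, with a line at the mean of 3 arrays. INPP1 and PLCD4 are higher at each step, ITPR3 is high at 80 nM alone (mean -0.88), PIK3R3 and PLEKHA2 have their highest arrays at 8 nM, and INPP5A its lowest.

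Other 5-phosphatases went separate ways. INPP5A, which acts on soluble inositol trisphosphate, was 0.22, -0.0026 and 0.19 untreated, -0.77, -0.78 and -0.63 at 8 nM, and 0.25, 0.23 and 0.25 at 80 nM. It fell at 8 nM, with a change of -0.86 ± 0.0814 (0.550-fold, adjusted p = 5.3e-04, limma), a pattern opposite to that of INPP5D at this concentration, and at 80 nM it was 0.11 from untreated (adjusted p = 0.28). Its second probe gave -0.96 at 8 nM. SYNJ2, a synaptojanin, fell at both concentrations, with changes of -0.59 (adjusted p = 0.0063) and -1.40 (adjusted p = 7.4e-06), while SYNJ1 rose by 0.83 at 80 nM (adjusted p = 0.0088). The 8 nM call of SYNJ2 stood close to the limit and was lost with normexp background correction (-0.47), spike-in scaling (-0.51), the authors' log2 values (-0.53), and without untreated replicate 1 (-0.56) or 8 nM replicate 2 (-0.49). INPP5B, INPP5E, INPP5J, INPP5K and OCRL were not called at either concentration. Of the 9 tested 5-phosphatases other than INPP5D, 2 were called at 8 nM, beside 7.09% of all genes, and 2 at 80 nM, beside 35.1%. OCRL changed by -0.39 at 80 nM (adjusted p = 0.0043, limma), under the fold limit. By limma's unadjusted p alone, INPP5E and INPP5J passed at 8 nM, beside 30.8% of all genes. INPP5J and OCRL passed so at 80 nM, beside 63.3%.

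Among the proteins that bind PIP3 or PI(3,4)P2, PLEKHA2 (TAPP2), which binds PI(3,4)P2, the lipid that SHIP phosphatases make, had the same order of groups as INPP5D. Its level was -0.59, -0.59 and -0.53 untreated, -0.21, 0.29 and 0.07 at 8 nM, and -1.99, -1.96 and -1.97 at 80 nM. No groups overlapped. It rose by 0.62 ± 0.117 at 8 nM (1.54-fold, adjusted p = 0.012) and fell by 1.41 at 80 nM (0.378-fold, adjusted p = 2.3e-05, limma). PLEKHA1, of the same role, was called lower at 80 nM by its brightest probe (-0.61, adjusted p = 0.0018, limma). Its second probe differed by 0.59 there, so the probes disagree and no direction is given for PLEKHA1. At 8 nM these probes differed from untreated by 0.03 and 0.30. Of the 8 genes of this role tested, 1 was called at 8 nM, beside 7.09% of all genes, and 4 at 80 nM, beside 35.1%. PREX1, a PIP3-activated exchange factor for RAC, had levels from -1.59 to -1.42 untreated and was not well above background on any 80 nM array, which makes it at least 21.4-fold lower there (adjusted p = 1.0e-07, limma). The brighter probe of its relative PREX2 was not well above background on any untreated array and entered the test through the 80 nM group alone, where it was at least 2.55-fold higher. The other PREX2 probe, well above background on 1 untreated array and no other, differed the opposite way at 80 nM, by -2.19, so the probes disagree and no direction is given for PREX2.

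Of the kinases that make PI(4)P and PI(4,5)P2, none of 11 was called at 8 nM, beside 7.09% of all genes. PI4KB, PI4K2A, PIP5K1C, PIP4K2C and PIKFYVE (5 of 11, beside 30.8% of all genes) had an unadjusted p under 0.05 in limma with changes from -0.23 to 0.37. The PIKFYVE probes disagree: the brightest differed from untreated by 0.27 at 8 nM and 0.32 at 80 nM. Its dimmer probes differed by -0.0002 and -0.30 at 8 nM and by -0.77 and -0.68 at 80 nM. At 80 nM 6 of the 11 were called, 2 higher and 4 lower, beside 35.1% of all genes. The 3 type I PIP5 kinases were called lower: PIP5K1C changed by -0.78 (adjusted p = 8.0e-05, limma), and PIP5K1A and PIP5K1B were not well above background on any 80 nM array, at least 1.48-fold (adjusted p = 0.023) and 3.43-fold (adjusted p = 1.5e-04) below untreated. The bound of PIP5K1A is just short of the fold limit, so its call rests on readings near background. A second, dimmer PIP5K1B probe gave a bound of 1.32-fold. PIP4K2B changed by -0.65 (adjusted p = 2.6e-04), and PIP4K2C (1.06, adjusted p = 4.0e-06) and PI4K2B (0.72, adjusted p = 3.6e-04) rose. A second, dimmer PIP4K2B probe differed from untreated by -0.38 at 80 nM, short of the fold limit. CDS2, which makes the CDP-diacylglycerol from which phosphatidylinositol is built, fell at 80 nM (-0.80, adjusted p = 1.6e-04).

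PIK3IP1, a membrane protein that restrains PI3K, rose by 0.92 at 8 nM (adjusted p = 0.031, limma) and was well above background on 1 of 3 arrays at 80 nM. Its 8 nM call was lost on the authors' log2 values (0.49) and after normexp background correction (0.30). The scaffold IRS1 rose by 0.60 (adjusted p = 2.2e-04) and GAB2 changed by -0.70 (adjusted p = 4.7e-05) at 80 nM. The adaptor SHC1, a binding partner of SHIP1, rose by 0.81 at 80 nM (adjusted p = 2.0e-05), and its 8 nM change was 0.55 (adjusted p = 0.0017), under the fold limit. By their brightest probes, none of the 4 class II and III PI3K genes and none of the 8 AKT substrates tested was called against untreated at either concentration. The rule was the fold limit and unadjusted p, which called 7.09% of all genes at 8 nM and 35.1% at 80 nM. For the substrate TSC2 the probes disagree: the brightest differed from untreated by 0.06 at 8 nM and -0.06 at 80 nM, and a dimmer one by -0.30 and -1.28. By limma's unadjusted p alone, which 30.8% and 63.3% of all genes passed, PIK3C2B and PIK3C3 passed at 8 nM and PIK3C3 and PIK3R4 at 80 nM, and of the substrates GSK3A and BAD passed at 8 nM and GSK3B, FOXO3 and AKT1S1 at 80 nM.

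The genes whose levels followed INPP5D most closely over the 9 arrays were taken by Pearson correlation among 12697 genes well above background on every array. They were TYROBP (r = 0.997), an adaptor of receptors on myeloid and natural killer cells, TLE2 (0.997), a transcriptional corepressor, NUAK2 (0.996), a kinase related to AMPK, PRKY (0.995), a pseudogene with a close X-linked copy that may share its signal, and PDE2A (0.995), a phosphodiesterase of cyclic nucleotides. The 9 arrays fall in 3 groups, so that these correlations rest on the group means. Their differences from untreated at 8 and 80 nM were 1.28 and -1.24 for TYROBP, 1.33 and -1.31 for NUAK2, 1.02 and -0.82 for PDE2A, 0.713 and -0.475 for PRKY, and 0.36 and -0.29 for TLE2. All were smaller than those of INPP5D. These genes were picked for following INPP5D, itself picked for its rise and fall, so the shared direction follows from the choice.

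As INPP5D, PIK3CD and TYROBP are known mainly from blood cells, 10 leukocyte markers were read on the same arrays. Their summed intensity relative to the 75th percentile was 0.809 to 0.867 untreated, 0.772 to 0.812 at 8 nM and 0.900 to 1.09 at 80 nM. The sum adds different probes and is carried largely by CORO1A, which changed by -0.03 and 0.07, so it says little of the dimmer markers, and their part in the values of INPP5D was not tested. Between 6 and 9 of the 10 were well above background on an array. LCP2 was not on any array, and the lymphocyte marker CD3E was on no 8 nM array. PTPRC (CD45) was read above background by 1 of its 4 probes. Of 7 leukocyte markers tested, PTPRC alone was called at 8 nM, lower (-0.73, adjusted p = 0.096, limma), beside 2.84% of all genes. At 80 nM 2 were called higher, HCLS1 (1.26, adjusted p = 6.3e-06) and WAS (0.83, adjusted p = 0.048), beside 18.8% of all genes. WAS was at -2.47 on 80 nM replicate 2 and at -3.77 and -3.71 on the other arrays of that group. Under the fold limit at 80 nM, SPI1 changed by -0.46 (adjusted p = 9.5e-04), ITGAM by 0.51 (adjusted p = 0.0044) and PTPRC by -0.20 (adjusted p = 0.52). Of 9 epithelial and ovarian carcinoma markers, EPCAM, KRT8, KRT18 and KRT19 were well above background on all 9 arrays, whereas CDH1, WT1, MSLN and MUC16 were on none. PAX8 was on 1 array of each group. EPCAM, an epithelial adhesion molecule, was the 1 called of the 4 tested. It was called higher at 8 nM (0.90, adjusted p = 0.029, limma), beside 4.25% of all genes, and lower at 80 nM (-0.93, adjusted p = 0.0065), beside 16.3%. This is the same order of groups as INPP5D, and the part of EPCAM in the result was not tested. The changes at 8 and 80 nM were -0.05 and 0.30 for KRT8, 0.16 and -0.008 for KRT18, and 0.90 and 0.17 for KRT19, none of them called. The summed intensity of the 9 markers, mostly that of KRT8 and KRT18, was 3.21 to 3.31 untreated, 3.45 to 3.68 at 8 nM and 3.32 to 3.66 at 80 nM.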

How the data were processed

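RNA of 9 cultures was read on 1-colour Agilent arrays of 62976 spots. The authors scanned the arrays and extracted spots with Feature Extraction 10.7.3.1, per the file headers, and the processed intensity they deposited has the background taken off and no scaling between arrays. Their series table, deposited by the authors, holds log2 values that were normalised between arrays and still contain background, and it served as an alternative. From the processed intensity, the log2 was taken and the log2 of the array's 75th percentile subtracted. Control and outlier spots were left out (4259 control spots), spots of a probe were averaged, and no probe of a gene was saturated. Probes that no group had well above background on each of its 3 arrays were dropped, which left 26457 probes, and the brightest probe stood for a gene. The array design was drawn on another build than the RefSeq tables (GRCh38.p14), which gave current symbols to 25713 of 26576 probes with a RefSeq accession and supplied the promoters.

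limma 3.58.1 in R 4.3.3 was fitted to all 9 arrays without a block, and tested on simulated data. A bound was taken where no array of a group was well above background, against the lowest signal well above background. The members and the gene lists were chosen with earlier results of these data known. Named were the 8 members, from the list up to 5 of the largest rises and falls at each concentration among genes called with an adjusted p under 0.05, measured on all arrays of both groups and not overlapping, a few fixed relatives, some of which are not reported here, and the 5 genes most like INPP5D; others of the list are named as called genes, or with their role counts, after their values were seen. Between untreated and 8 nM arrays, deviations from the group mean correlated at 0.114, 0.101 and 0.163 for the same replicate number. For different numbers in these groups they correlated at -0.123 to -0.00298. With 80 nM arrays the same number gave -0.124 to 0.0156, and different numbers gave -0.136 to 0.125. Between untreated and 8 nM arrays, every matched value thus lay above every unmatched one. Unmatched 8 nM and 80 nM arrays, on different slides, reached values as large as 2 of those 3 matched ones. These correlations do not settle whether replicate numbers mark pairs. The number of arrays limits the precision. Alternatives were normexp correction on the median spot signal, quantile, median and spike-in scaling (10 probes), the authors' values, other filters and probe rules, a replicate block, only the groups compared, and each array left out.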

Additional observations from a re-analysis of the deposited data

How the results depend on the processing

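No call at 8 nM among the 7 genes other than INPP5D appeared under any of 21 settings, and INPP5D ranged from 2.19 to 2.39 for 8 nM and from -2.17 to -1.47 for 80 nM. At 80 nM the count of called genes among the 7 went from 4 to 2 with normexp background correction, with the authors' log2 values and without untreated replicate 3 (range 2 to 4 with each array left out), and between 80 and 8 nM from 5 to 3 with normexp (4 to 6 with each array left out). Of the pathway list, 11 calls at 8 nM became 5 with normexp and 7 with the authors' values (10 to 11 with each array left out), 34 at 80 nM became 20 with normexp (32 to 35), and 35 between the concentrations ranged from 26 to 44. Calls over all genes fell as well, from 1548 at 8 nM to 748 with normexp and 907 with the authors' values, and from 7665 at 80 nM to 4754 with normexp. With the replicate block the counts were 0, 4 and 5 for the 7 genes and 11, 34 and 35 for the list, and the block added after seeing the data, on the untreated and 8 nM arrays alone, gave 0 and 11, so that it changed none of these counts. Of 872 single values under other settings, 822 kept direction and side of the threshold, 29 lost and 5 gained a call, and 16 changed sign, all but that of INPPL1 at 8 nM. At 8 nM INPP4B (0.02) was -0.0075 with quantile and -0.0004962 with median scaling, and -0.14 to 0.32 with each array left out. PIK3CA (-0.07) was 0.00604 with spike-in scaling and -0.19 to 0.069 with each array left out. PIK3CB (-0.02) was 0.016 with normexp, 0.0598 with spike-in scaling, 0.0167 with the authors' values, and -0.0953 to 0.05004 with each array left out. PIK3R1 (0.15) was -0.0282 to 0.35 with each array left out, and AKT2 (0.16) was -0.11 for the mean of its probes and -0.14 to 0.32 with each array left out. INPPL1 between 80 and 8 nM was -0.18 with spike-in scaling. Spike-in scaling moved the median of all genes at 80 nM from 0.0776 to -0.201, which lowers every 80 nM change alike. The cause of the other shifts was not tested. Slide 2 holds all 80 nM arrays, so no value within a slide could be had for 80 nM.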
